A study of Mus musculus with 33 samples.

Results

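The ING1 sites of myotubes only were 433 autosomal regions of C2C12 cells, a mouse myoblast line, at which ING1 was listed in differentiated myotubes and not in growing myoblasts. They were chosen by the ING1 peak lists themselves. Each is a peak of the pooled ING1 list of myotubes on chromosomes 1 to 19 that overlapped, by at least 1 bp, a peak of at least 1 of the 3 ING1 replicate lists of myotubes and overlapped no peak of the pooled list or of either replicate list of ING1 in myoblasts. They made up 4.52% of the 9570 autosomal peaks of the pooled ING1 myotube list. The 9 pooled or single lists of the series held 396699 autosomal peaks in all. The rule itself used no peak of a protein other than ING1.

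ING1 was mapped by ChIP-seq, in which an antibody retrieves a protein together with the DNA it is bound to, the DNA is sequenced and the places where reads pile up are listed as peaks. The ING1 myotubes came from a stable C2C12 line that expressed Flag-tagged ING1 from a pBabe-puro retrovirus under puromycin selection, kept for 96 h (4 days) in 2% horse serum, and the ING1 myoblasts from the same kind of line growing in 10% fetal bovine serum. In both states the ING1 signal is therefore that of an ectopically expressed, tagged protein, pulled down through the tag. Sin3A and LSD1 were mapped in myotubes after the same 96 h, and LSD1, Menin, Wdr5, MLL1 and MLL3 in growing myoblasts, with antibodies to the proteins themselves. Replicates numbered 3 for ING1 in myotubes and for Wdr5, and 2 for ING1 in myoblasts, Sin3A, Menin and MLL1. LSD1 in each state and MLL3 had 1 list each and so no replicate check. The sample labels call Sin3A a myotube sample, while the series text speaks of myoblasts. The sample labels were used. The samples taken here as MLL1 name MLL1 as the antibody but Menin as the source.

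ING1 reads histone H3 trimethylated at lysine 4 (H3K4me3), the mark of active and poised promoters, through its PHD finger, and belongs to Sin3 histone deacetylase complexes, whose scaffold is Sin3A. LSD1 removes methyl groups from lysine 4. MLL1 and MLL3 place them, Menin is a subunit of the MLL1 complex and Wdr5 a core subunit shared by all MLL complexes. When serum is withdrawn, C2C12 myoblasts leave the cell cycle and fuse into contractile myotubes.

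The lists hold the chromosome and the 2 ends of each peak, with no read count, height or score, so how deeply each sample was sequenced is unknown, and the absence of a peak is absence from a list, not a measured absence of binding. The autosomal replicate lists of ING1 in myotubes held 2151, 2485 and 122 peaks, and those in myoblasts 427 and 5496. The pooled lists of ING1 held 9570 peaks in myotubes and 8114 in myoblasts. Replicate 3 of myotubes and replicate 1 of myoblasts thus stood apart as short lists. The other lists ranged between 4419 autosomal peaks for LSD1 in myoblasts and 208538 for MLL3, with 68934 for Menin, 58123 for Wdr5, 16361 for LSD1 in myotubes, 13845 for Sin3A and 8795 for MLL1.

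The myotube-only sites were a small minority of what the ING1 myotube replicates held. Of the 3152 pooled myotube peaks supported by a replicate list, 433 (13.7%) had no myoblast peak and 2719 overlapped one. Per replicate list the myotube-only share was 231 of 2056 sites (11.2%) in replicate 1, 295 of 2372 (12.4%) in replicate 2 and 7 of 122 (5.74%) in replicate 3. Among the 6418 pooled peaks that no replicate list held, 2772 (43.2%) lacked a myoblast peak, so most pooled peaks listed in myotubes alone had no replicate support. The same rule turned round gave 678 myoblast-only sites of 4764 supported myoblast sites (14.2%). These counts describe the choice and were not tested.

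Support came almost wholly from replicates 1 and 2. Replicate 2 alone held 196 of the 433 sites, replicate 1 alone held 132, both held 98, replicate 3 alone held 6 and all 3 held a single site. Thus 99 sites (22.9%, exact binomial 95% interval 18.99 to 27.1%) stood in at least 2 lists, against 1221 of the 2719 shared sites (44.9%, 43.0 to 46.8%). Intervals of this kind, here and below, cover counting error only. In 430 of the 433 sites a whole replicate peak lay inside the pooled peak. No supporting replicate peak touched a myoblast peak, which the rule itself fixed for each replicate peak lying inside a member.

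The pooled myoblast list decided many memberships. There were 912 supported myotube sites with no peak in either myoblast replicate list, and 479 of them (52.5%) overlapped a peak of the pooled myoblast list and were therefore not members.

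The sites were narrower than the shared ones. Their median width was 778 bp, with the middle of the distribution between 607 and 1039 bp and extremes of 22 and 2408 bp. Shared sites had a median of 1040 bp, and the myotube peaks without replicate or myoblast support one of 531 bp. Because a wider site overlaps any other list more easily, shares are given below also by width.

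Most sites lay far from any ING1 peak of myoblasts, but some bordered one. The nearest myoblast ING1 peak was between 4 bp and 4286312 bp away, with a median of 31644 bp and quartiles of 5959 and 82534 bp. It lay within 500 bp of 58 sites (13.4%), over 500 bp to 5 kb from 45 (10.4%), over 5 to 50 kb from 167 (38.6%) and over 50 kb from 163 (37.6%). At the limit of the rule, the member nearest to a myoblast peak was chr7:133645503-133646018, 4 bp away, followed by chr12:101437322-101438513 at 22 bp and chr12:60113125-60114129 at 40 bp. Just outside it, the shared site chr5:130732192-130732901 overlapped a myoblast peak by 4 bp, chr3:159158047-159158875 by 37 bp and chr4:63207229-63208029 by 41 bp. Altogether 10 members had a gap under 100 bp and 13 shared sites an overlap under 100 bp. Coordinates are of build mm9, counted from 1. The genes at these positions were not analysed here.

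Sin3A, the scaffold of the complex that ING1 belongs to, was the myotube protein most often found at the sites. A Sin3A peak of myotubes overlapped 351 of the 433 myotube-only sites (81.1%, 95% interval 77.0 to 84.6%), against 2583 of the 2719 shared sites (94.998%, 94.1 to 95.8%). Over all 9570 pooled ING1 myotube peaks the share was 80%, near that of the myotube-only sites and below that of the shared sites. That background is not matched to the members, since 6418 of its peaks were in no replicate list. Sin3A was at 57.1% of these unsupported peaks where they lacked a myoblast peak and at 86.0% where they overlapped one. By ING1 replicate list, Sin3A was at 76.2%, 83.7% and 85.7% of the myotube-only sites of replicates 1, 2 and 3, and at 94.5%, 95.5% and 98.3% of the shared sites. All 3 values for myotube-only sites lay below all 3 for shared sites.

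The mean over lists was 81.9 ± 5.02% for myotube-only and 96.1 ± 1.96% for shared sites (SD, n = 3 lists), a difference of -14.2 ± 3.54 percentage points. In an exact two-sided sign-flip permutation test over the 3 lists it had p = 0.25, the smallest p that 3 lists allow. The lists share many of their sites and the labels do not describe replicates as separate cultures. The p-values given here therefore concern only these particular ING1 samples, whose variation may be technical, and not variation between samples of the other proteins. Where all 3 differences have the same sign, the sign-flip p is 0.25 whatever their spread. Sin3A was less frequent at myotube-only than at shared sites on 19 of the 19 autosomes. So were LSD1 of myoblasts and Menin, while MLL1 was less frequent on 18, LSD1 of myotubes and Wdr5 on 16 each and MLL3 on 12. Its 2 replicates were unequal. The list of Sin3A replicate 1, with 9270 peaks, held 318 myotube-only sites (73.4%) against 91.5% of shared sites, and that of replicate 2, with 426 peaks, held 22 (5.08%) against 11.6%.

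The Sin3A peaks that overlapped a site covered most of it, though overlap itself was how these sites were picked. Sin3A peaks covered a median of 86.8% of the 351 myotube-only sites they overlapped, with 156 bp between the centres, and 91.0% of the shared sites, with 155 bp between the centres. For LSD1 at myotube-only sites these medians were 66.6% and 154 bp in myotubes, and 42.4% and 150.75 bp in myoblasts. They were 100% and 326.5 bp for Menin and 100% and 196.5 bp for Wdr5. For MLL1 they were 72.2% and 183.5 bp, and for MLL3 42.3% and 566.75 bp. Of the 82 myotube-only sites without Sin3A, 21 had a Sin3A peak within 1 kb, and the median distance to the nearest was 16.8 kb.

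LSD1, the H3K4 demethylase, was found at fewer than 1 in 3 of the sites in either state. Its myotube list overlapped 133 of the 433 (30.7%, 26.4 to 35.3%), against 1484 of the shared sites (54.6%, 52.7 to 56.5%) and 37.8% of all pooled ING1 myotube peaks. By ING1 replicate, LSD1 of myotubes was at 28.1%, 30.8% and 28.6% of myotube-only sites, against 52.8%, 55.7% and 61.7% of shared sites, and the groups did not overlap. The mean difference was -27.6 ± 4.87 percentage points (SD, n = 3 lists; exact sign-flip permutation p = 0.25, the smallest possible).

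LSD1 peaks of growing myoblasts, the state without an ING1 peak at these sites, were present too. The LSD1 myoblast list overlapped 128 myotube-only sites (29.6%, 25.3 to 34.1%), against 1389 shared sites (51.1%, 49.2 to 53.0%) and 34.5% of all pooled ING1 myotube peaks. By ING1 replicate these shares were 27.7%, 31.2% and 14.3% of myotube-only sites, against 48.8%, 52.5% and 62.6% of shared sites, a mean difference of -30.2 ± 15.7 percentage points (SD, n = 3 lists; exact sign-flip permutation p = 0.25). The third value of the myotube-only sites rested on 1 of 7 sites.

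The LSD1 peaks of the 2 states coincided at some of the myotube-only sites. LSD1 of myotubes was at 46.9% (38.0 to 55.9%) of the sites with LSD1 of myoblasts and at 23.9% (19.3 to 29.1%) of those without. Width was not held equal in this comparison, and LSD1 of either state was more frequent at wider sites. LSD1 was listed in both states at 60 sites (13.9%), in myotubes alone at 73 (16.9%), in myoblasts alone at 68 (15.7%) and in neither at 232 (53.6%, 48.8 to 58.4%). Shared sites had LSD1 in both states at 876 (32.2%), in myotubes alone at 608 (22.4%), in myoblasts alone at 513 (18.9%) and in neither at 722 (26.6%, 24.9 to 28.3%). So, at the sites where ING1 was listed after differentiation only, LSD1 was listed in myotubes alone about as often as in myoblasts alone. The LSD1 myotube list is the longer one, with 16361 peaks against 4419 in myoblasts.

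**Figure D1:**
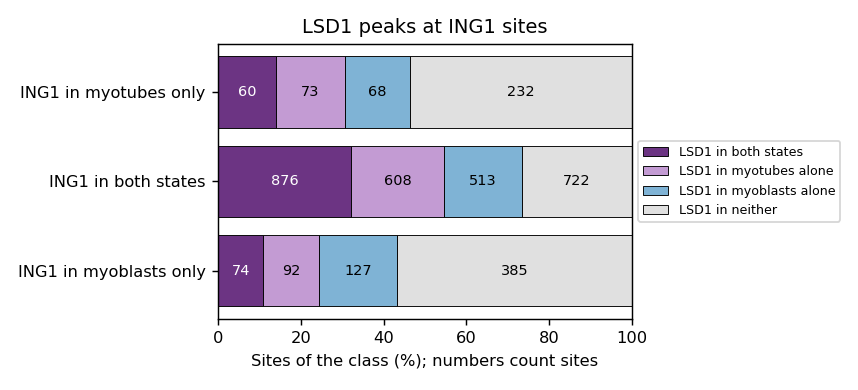
LSD1 peaks at ING1 sites. Each bar is a class of ING1 sites (433 listed in myotubes only, 2719 in both states, 678 in myoblasts only), the horizontal axis is the percentage of the class, the numbers count sites, and the colours give the state in which LSD1 was listed. Sites without LSD1 in either state make up 53.6% of the myotube-only, 26.6% of the shared and 56.8% of the myoblast-only sites.

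Sin3A and LSD1 of myotubes occurred together. Sin3A was at 125 of the 133 myotube-only sites with LSD1 of myotubes (94.0%, 88.5 to 97.4%) and at 226 of the 300 without (75.3%, 70.1 to 80.1%). Among shared sites the shares were 98.7% with LSD1 and 90.6% without. Width was not held equal here, and both proteins were more frequent at wider sites. Neither protein was listed at 74 myotube-only sites (17.1%, 13.7 to 21.0%), against 116 shared sites (4.27%, 3.54 to 5.10%).

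Proteins of the MLL complexes were measured in myoblasts only, that is in the state where these sites had no ING1 peak. Menin, the MLL1-complex subunit, was already at 345 of the 433 sites in myoblasts (79.7%, 75.6 to 83.4%), against 2527 shared sites (92.9%, 91.9 to 93.9%) and 85.6% of all pooled ING1 myotube peaks. By ING1 replicate it was at 77.9%, 82.0% and 57.1% of myotube-only sites, against 92.5%, 93.4% and 84.3% of shared sites, and each myotube-only value lay below every shared one. The mean difference was -17.7 ± 8.39 percentage points (SD, n = 3 lists; exact sign-flip permutation p = 0.25). The third value of the myotube-only sites rested on 4 of 7 sites, and without that list the mean difference was -12.9 points. Menin replicates 1 and 2 taken alone gave 58.2% and 54.7% of myotube-only sites, against 80.4% and 79.5% of shared sites.

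Wdr5, the core subunit of all MLL complexes, overlapped 363 sites (83.8%, 80.02 to 87.2%), against 2546 shared sites (93.6%, 92.7 to 94.5%). The share over all pooled ING1 myotube peaks was the same, 83.8%, but most of those peaks were in no replicate list. Among such unsupported peaks Wdr5 was at 66.5% of those without a myoblast peak and at 89.6% of those with one. By ING1 replicate Wdr5 was at 84.0%, 84.1% and 100% of myotube-only sites, against 93.8%, 94.1% and 88.7% of shared sites. The first 2 lists had it less often at myotube-only sites, and the third, with 7 of 7 sites, more often. The mean difference of -2.84 ± 12.3 percentage points (SD, n = 3 lists) did not exceed the spread between lists (exact sign-flip permutation p = 1). Without replicate 3 it was -9.92 points, and without replicate 1 or 2 it was 0.647 or 0.739. In each of the 3 Wdr5 replicate lists alone, 50.8%, 35.8% and 36.5% of the myotube-only sites had a peak, against 64.4%, 53.8% and 57.2% of shared sites.

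MLL1, an H3K4 methyltransferase, was at 99 sites (22.9%, 18.99 to 27.1%), against 1138 shared sites (41.9%, 40.0 to 43.7%) and 34.6% of all pooled ING1 myotube peaks. By ING1 replicate it was at 22.5%, 23.7% and 0% of myotube-only sites, against 41.5%, 42.5% and 30.4% of shared sites, with no overlap between the groups. The third value is 0 of 7 sites, and with 3 counts taken as the limit that a count of 0 allows, the share could be up to 42.9%. The mean difference was -22.7 ± 6.67 percentage points (SD, n = 3 lists; exact sign-flip permutation p = 0.25). Taken alone, MLL1 replicate 1, with 4098 peaks, held 52 myotube-only sites (12.0%), against 25.8% of shared sites, and replicate 2, with 460 peaks, held 7 (1.62%), against 4.74%. MLL1 came with Menin: 94 of the 99 myotube-only sites with MLL1 also had Menin (94.9%), against 251 of the 334 without MLL1 (75.1%). This was not particular to these sites. Menin was at 99.3% of shared sites with MLL1 and 88.4% of those without. For sites listed in myoblasts only the shares were 96.1% and 82.6%. Width was not held equal here, and both proteins were most frequent at the widest sites. The samples taken as MLL1 name Menin as their source.

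MLL3, a methyltransferase, had the longest of the lists. It was at 80 sites (18.5%, 14.9 to 22.5%), against 583 shared sites (21.4%, 19.9 to 23.0%) and 19% of all pooled ING1 myotube peaks. By ING1 replicate it was at 19.5%, 17.3% and 14.3% of myotube-only sites, against 21.2%, 22.9% and 33.9% of shared sites, a mean difference of -8.98 ± 9.42 percentage points (SD, n = 3 lists; exact sign-flip permutation p = 0.25). The spread was larger than the difference. The value of replicate 3 was 1 of 7 sites, and without that list the mean difference was -3.65 points. Over all sites, not averaged over lists, the difference was -2.97 points. Within classes of equal width that difference turned in sign, to 1.27 points higher at myotube-only sites. After Benjamini-Hochberg adjustment over the 7 lists the exact sign-flip p was 0.292 for each list but that of Wdr5, for which it was 1.

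**Figure D2:**
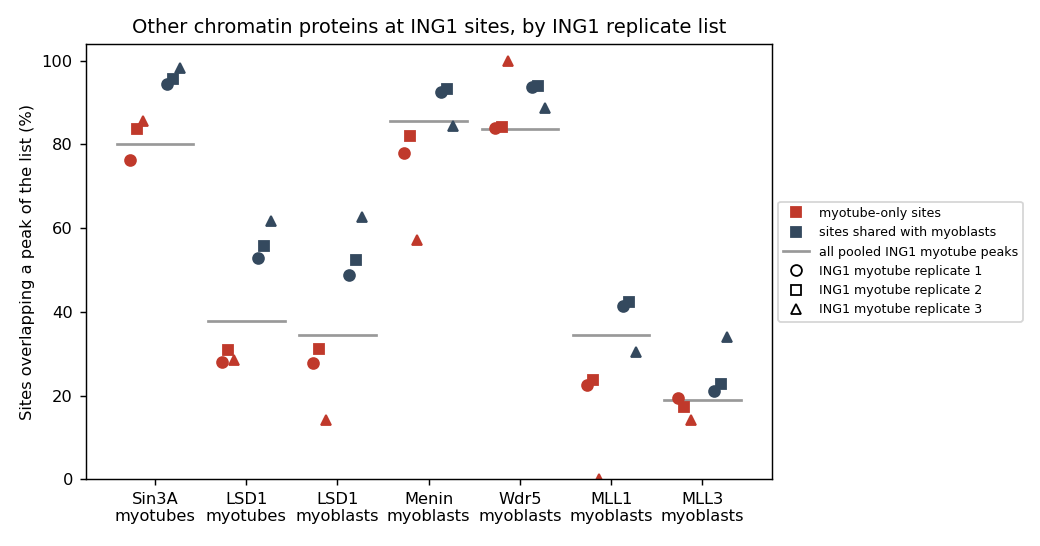
Percentage of ING1 sites that overlapped a peak of each of 7 other lists (vertical axis), for myotube-only sites (red, left) and sites shared with myoblasts (dark, right). Each point is 1 ING1 myotube replicate list, and grey lines give the share over all 9570 pooled ING1 myotube peaks, 6418 of them in no replicate list. All 3 myotube-only points lie below all 3 shared ones for Sin3A, both LSD1 lists, Menin, MLL1 and MLL3, and the replicate 3 point of myotube-only sites rests on 7 sites.

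The widest sites carried the other proteins most often. Over all sites, not averaged over ING1 lists, the differences between the classes were smaller in size when width was held equal. In 3 groups of myotube-only sites cut at 672 and 956 bp, Sin3A was at 66.9%, 87.5% and 88.9% of the narrow, middle and wide sites, against 90.7%, 91.4% and 97.9% of shared sites of the same widths. Intervals overlapped for the middle group alone, 81.0 to 92.4% against 89.2 to 93.4%. LSD1 of myotubes was at 18.6%, 34.0% and 39.6% of narrow, middle and wide myotube-only sites, against 34.8%, 46.1% and 64.1% of shared ones. LSD1 of myoblasts was at 19.3%, 27.1% and 42.4%, against 38.3%, 42.9% and 58.5%. MLL1 was at 21.4%, 18.8% and 28.5%, against 35.0%, 36.4% and 46.3%. Within 10 classes of width, weighted by the number of myotube-only sites, the differences between myotube-only and shared sites were -11.8 percentage points for Sin3A, -15.9 and -15.0 for LSD1 of myotubes and myoblasts, -11.6 for Menin, -8.13 for Wdr5 and -15.0 for MLL1. In the same order they were -13.9, -23.9, -21.5, -13.3, -9.80 and -19.0 over all sites without such classes.

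**Figure D3:**
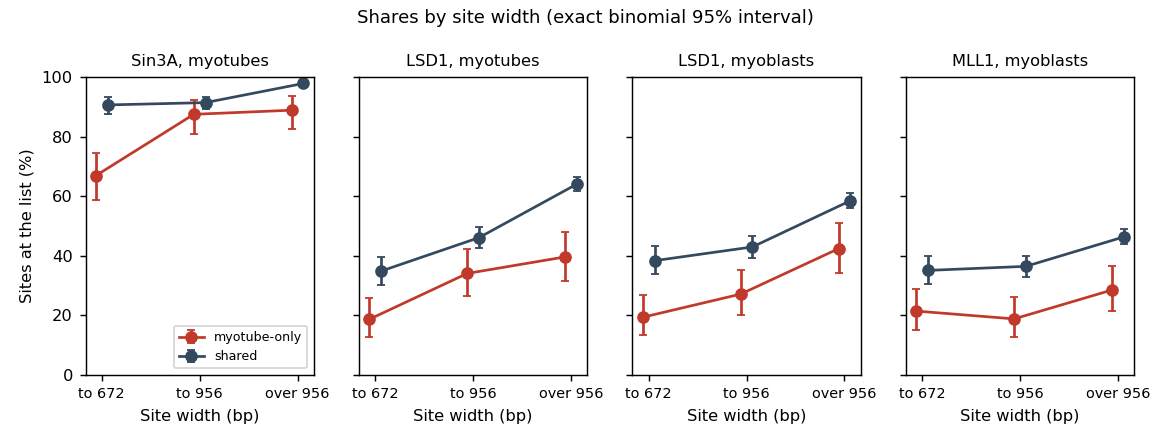
Percentage of sites at Sin3A, both LSD1 lists and MLL1 (vertical axes) in 3 classes of site width in base pairs (horizontal axes), for myotube-only (red) and shared sites (dark), with exact binomial 95% intervals. Myotube-only sites lie below shared ones in each class, and Sin3A is lowest, at 66.9%, in the narrowest myotube-only sites.

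For Sin3A and LSD1 of myotubes, differences by the number of supporting ING1 lists were within counting error. Sin3A was at 77 of the 99 sites held by at least 2 ING1 lists (77.8%, 68.3 to 85.5%) and at 274 of the 334 held by 1 (82.0%, 77.5 to 86.0%), and LSD1 of myotubes at 25.3% (17.1 to 35.0%) and 32.3% (27.3 to 37.6%). Among shared sites the corresponding values were 95.2% and 94.8% for Sin3A and 54.5% and 54.6% for LSD1. In each of these pairs the intervals overlapped. MLL3 was at 17.2% (10.3 to 26.1%) and 18.9% (14.8 to 23.5%) of the myotube-only sites in at least 2 lists and in 1, while for shared sites the intervals did not overlap, 24.2% (21.9 to 26.7%) and 19.2% (17.2 to 21.2%).

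The Sin3A share was lowest in value at the sites next to a myoblast ING1 peak. Sin3A was at 70.7% (57.3 to 81.9%) of the 58 sites within 500 bp of one, 82.2% of those at over 500 bp to 5 kb, 85.0% at 5 to 50 kb and 80.4% beyond, and the intervals of the nearest and farther groups overlapped. Median widths in these 4 groups were 665.5, 750, 774 and 861 bp. MLL1 was at 15.6% (10.4 to 22.0%) of the sites at 5 to 50 kb and at 28.8% (22.0 to 36.4%) of those beyond 50 kb, and Menin at 71.9% (64.4 to 78.5%) and 85.3% (78.9 to 90.3%). Neither followed a steady course with distance, since within 500 bp MLL1 was at 25.9% and Menin at 82.8%.

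Most sites carried several of the other proteins, though fewer than shared sites did. The median was 4 of the 7 other lists per myotube-only site and 5 per shared site. All 7 were at 4 myotube-only sites (0.924%), against 111 shared sites (4.08%), and none at 12 (2.77%, 1.44 to 4.79%), against 10 (0.368%, 0.176 to 0.675%). None of the 5 myoblast lists was at 24 myotube-only sites (5.54%), against 23 shared sites (0.846%). Menin and Wdr5 together were at 308 myotube-only sites (71.1%), against 2397 shared sites (88.2%). Sites listed in myoblasts only also had a median of 4 lists. All 7 lists were at 0.737% of them, none at 1.33% and none of the 5 myoblast lists at 2.36%. Menin and Wdr5 together were at 72.7% of them. Width was not held equal in these counts, and shared sites were wider.

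**Figure D4:**
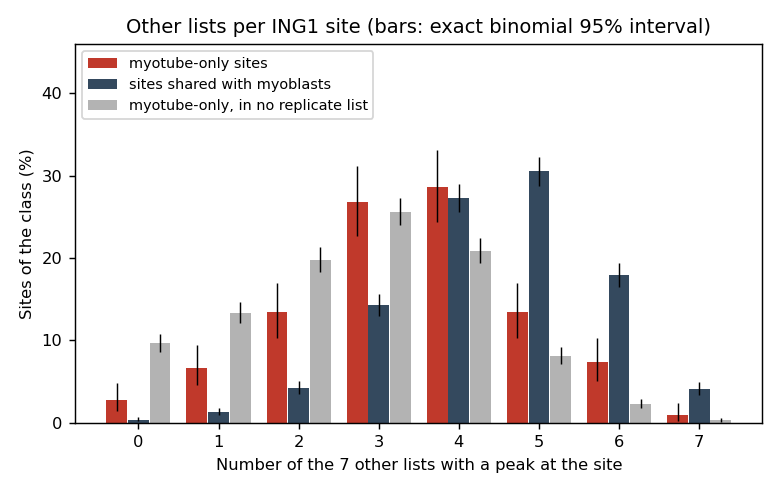
Number of the 7 other lists with a peak at an ING1 site (horizontal axis) and the percentage of sites of each class with that number (vertical axis; error bars are exact binomial 95% intervals). Myotube-only sites (red) have a median of 4, shared sites (dark) of 5, and myotube peaks in no replicate list and without a myoblast peak (grey) of 3.

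The 433 sites showed 61 different combinations of the 7 lists. The commonest was Sin3A with Menin and Wdr5 and nothing else, at 72 sites (16.6%), and shared sites had it at 266 (9.78%). Adding LSD1 of myotubes to these 3 gave 33 sites (7.62%), adding LSD1 of myoblasts 30 (6.93%) and adding MLL1 26 (6.005%). Among shared sites the commonest combination was all lists but MLL3, at 294 (10.8%), which 14 myotube-only sites had (3.23%).

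The single site held by all 3 ING1 myotube replicate lists was chr14:65880884-65881682, 799 bp wide. It lay 99 bp from a myoblast ING1 peak and so close to the limit of the rule. Peaks of Sin3A, Menin and Wdr5 covered 46.9%, 56.3% and 100% of it, and the nearest LSD1 peaks were 163.88 kb away in myotubes and 163.92 kb away in myoblasts.

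Of the 98 sites held by 2 lists, the 10 widest were between 1476 and 1809 bp wide and each had a peak in 4 to 6 of the 7 other lists. Wide sites had both Menin and Sin3A more often than narrow ones. Among the 144 myotube-only sites of the wide group, cut at 956 bp, Menin was at 86.8% and Sin3A at 88.9%. In the narrow group the shares were 73.8% and 66.9%. Of the 10 sites picked here for their width, Menin was at all 10 and Sin3A at 9. A difference from the shares of the wide group was not tested. The widest, chr1:60622557-60624365, lay 155.22 kb from a myoblast ING1 peak and was covered by Sin3A over 76.2%, by Menin over 75.4%, by MLL1 over 74.4% and by LSD1 of myoblasts over 26.1% of its length. The exception for Sin3A was chr11:118279292-118280810, whose nearest Sin3A peak was 5.655 kb away and which LSD1 of myotubes and of myoblasts covered over 25.7% and 37.2%. The site chr17:41070409-41072140, 1084.8 kb from a myoblast ING1 peak, had a peak in 6 of the 7 lists, all but LSD1 of myotubes.

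At 4 sites the 2 myotube proteins were listed together with no myoblast list at all. The widest, chr7:133767230-133769146, was covered by Sin3A over 23.0% and by LSD1 over 27.3% of its 1917 bp, with the nearest Wdr5 peak 0.140 kb and the nearest Menin peak 56.087 kb away. The site chr2:26926725-26928011, held by replicates 1 and 2, was covered by Sin3A over 89.5% and by LSD1 over 38.5%, with LSD1 of myoblasts 60.602 kb away. The others were chr2:164681784-164683057, with a Menin peak 0.163 kb away, and chr9:56924253-56925213, with one 0.038 kb away. In 3 of the 4, then, a peak of a myoblast protein lay no more than 0.163 kb from the site.

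Among the 12 sites with none of the 7 lists the widest was chr6:91066149-91067150, 1002 bp, held by replicates 1 and 2 and 351.98 kb from a myoblast ING1 peak. Its nearest neighbour among the other lists was an MLL3 peak 1.423 kb away, with Sin3A 20.03 kb away. By contrast chr17:35068212-35068926, held by replicate 1, had a Sin3A peak 0.182 kb from its edge.

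The sites were scattered. Of 414 neighbouring pairs on the same chromosome 7 lay within 10 kb of each other, and the median distance to the next member was 2492.3 kb. A shared site lay within 1 kb of 27 of them (6.24%) and within 10 kb of 56 (12.9%), and the median distance to one was 106.09 kb.

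The share of supported ING1 myotube sites that were myotube-only varied in value between chromosomes, of which the highest and lowest are given here. It was 24.2% (22 sites, 15.8 to 34.3%) on chromosome 18, 22.5% (13.5 to 34.0%) on 16, 20.7% (31 sites, 14.5 to 28.0%) on 7 and 20.2% (12.4 to 30.1%) on 13. It was lowest on chromosome 15, 8.41% (5.06 to 13.0%), and on 11, 10.1% (7.03 to 13.8%), against 13.7% over all autosomes. The intervals of chromosomes 16, 13 and 11 included that value. For chromosomes 18, 16, 7 and 15, replicates 1 and 2 taken singly lay on the same side of the shares over all autosomes, 11.2% in replicate 1 and 12.4% in replicate 2. They were 21.1% and 21.1% on chromosome 18, 17.1% and 23.5% on 16, 20.4% and 19.05% on 7, and 4.86% and 7.83% on 15. On chromosome 13 they were 10.2% and 22.5% and so stood on opposite sides. These values come from the lists that chose the sites and were not tested. Replicates 1 and 2 hold 98 of the members in common, so their values are not independent.

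**Figure D5:**
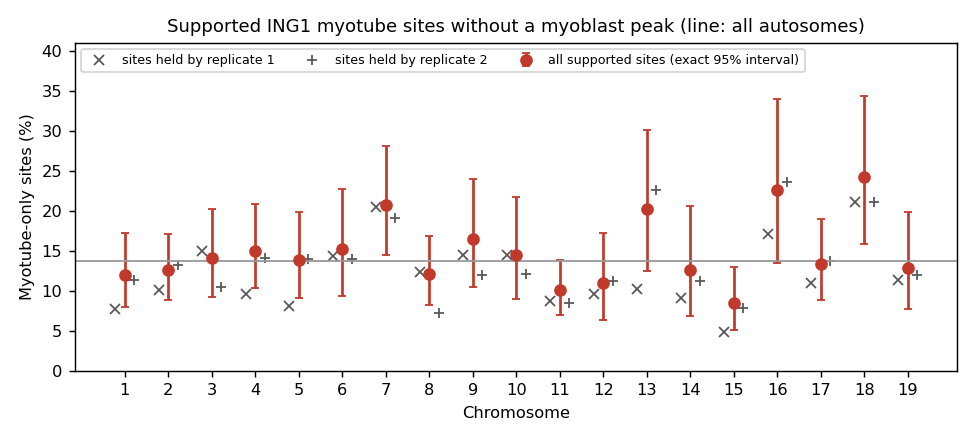
Percentage of supported ING1 myotube sites without a myoblast ING1 peak (vertical axis) on each autosome (horizontal axis). Red points are all supported sites with exact binomial 95% intervals, crosses and plus signs the sites held by replicate 1 and by replicate 2, and the line is 13.7% over all autosomes. Chromosomes 18, 16, 7 and 13 are highest and chromosome 15 is lowest.

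The mirrored class, 678 sites where ING1 was listed in myoblasts only, allowed a comparison of 2 state-limited classes, and was added after values had been seen. Their replicate support was unlike. Myoblast replicate 2 alone held 660 of the 678 and both lists held 8 (1.18%), while 22.9% of myotube-only sites stood in at least 2 lists. Shares over all pooled ING1 myoblast peaks are not given here. Sin3A of myotubes was at 81.1% of myotube-only and 61.2% (57.4 to 64.9%) of myoblast-only sites. By ING1 replicate list it was at 76.2%, 83.7% and 85.7% of the myotube-only sites of myotubes, against 66.7% (12 of 18 sites) and 61.2% of the myoblast-only sites of myoblasts, with no overlap. The mean difference was 17.9 percentage points, with means of 81.9 ± 5.02% (SD, n = 3 lists) and 63.9 ± 3.85% (SD, n = 2 lists). The exact two-sided permutation p was 0.2, the smallest that 3 against 2 lists allow (0.467 adjusted over the 7 lists).

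MLL1 of myoblasts showed the opposite order. It was at 22.5%, 23.7% and 0% of the myotube-only sites of the 3 lists, against 66.7% and 44.3% of the myoblast-only sites of the 2 lists, a mean difference of -40.1 percentage points (exact permutation p = 0.2, adjusted 0.467). Over all sites, where the myoblast list of 18 sites counts by its size, MLL1 was at 22.9% of myotube-only and 44.8% (41.1 to 48.7%) of myoblast-only sites, a difference of -22.0 points. For Menin, also of myoblasts, the mean difference was -8.28 points (exact permutation p = 0.6), and the values of the 3 myotube lists, 57.1 to 82.0%, overlapped those of the 2 myoblast lists, 72.2 and 89.1%. Wdr5 was at 84.0%, 84.1% and 100% of myotube-only sites, against 77.8% and 80.2% of myoblast-only sites (mean difference 10.3 points; exact permutation p = 0.2). Over all sites the Wdr5 shares were 83.8% and 80.1%, a difference of 3.75 points.

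LSD1 differed by less than the spread between lists. LSD1 of myotubes was at 30.7% of myotube-only and 24.5% of myoblast-only sites, and LSD1 of myoblasts at 29.6% of each class. The mean differences over lists were -5.16 and -1.69 points (exact permutation p = 0.8 and 1), and for MLL3 -2.85 points (exact permutation p = 0.4). Over all sites 2 of these 3 differences had the other sign, 6.23 points for LSD1 of myotubes and, with MLL3 at 18.5% of myotube-only and 17.6% of myoblast-only sites, 0.924 points for MLL3. The first myoblast list held only 18 myoblast-only sites, against 668 in the second, so its shares are coarse. Myoblast-only sites had a median width of 713.5 bp, against 778 bp for myotube-only sites.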

How the data were processed

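The authors' deposited files are peak lists of ChIP-seq samples of C2C12 cells, 14 of single replicates, 6 pooled and 3 single, with the chromosome and both ends of each peak in base pairs and no other value, per the file headers. Per the submitters' processing notes, the tools included bedtools 2.17.0, Bowtie 0.12.9 and SAMtools 0.1.19, and the builds were mm9 and NCBIM37. How peaks were called and pooled, and at which threshold, is not given in the sources used here. Left ends were read as counted from 0.

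Groups came from the sample titles. Of 33 samples, 10 inputs and 6 RNA-seq samples were not used here. The members, the lists and the comparisons were chosen with earlier results of these data known. Peaks overlapped where they shared at least 1 bp. Shares carry exact Clopper-Pearson 95% intervals. Classes of sites were compared over ING1 replicate lists by exact two-sided permutation tests (Python 3.11.15, NumPy 2.4.6, SciPy 1.17.1; figures with matplotlib 3.10.9), with Benjamini-Hochberg adjustment over the 7 other lists. The code was tested on simulated lists. Named regions were the site in all 3 ING1 lists, the 10 widest in 2 lists, the 5 widest with none of the 7 other lists, those with Sin3A and LSD1 of myotubes and no myoblast list, and 3 on each side of the overlap limit. Examples of them are printed. Positions relative to genes, promoters and sequence had been planned and were not analysed here, since the reference tables used another build.

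Alternatives were a stricter overlap (50% of the shorter peak), a looser one (within 500 bp), the wider 50% of peaks, support by 2 lists or none, omission of each replicate, other myoblast lists, single replicate lists of the other proteins, and classes of width or support.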

Additional observations from a re-analysis of the deposited data

Results flagged for a closer look

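On chromosome X, outside the rule, 11 of 24 supported ING1 myotube peaks (45.8%, exact binomial 95% interval 25.6 to 67.2%) had no myoblast ING1 peak, against 13.7% on the autosomes. Of the 11, 8 overlapped Sin3A. The Sin3A share was 81.1% of autosomal myotube-only sites and 80% of all autosomal pooled ING1 myotube peaks, and that of other X peaks is not given here. The X chromosome was left out of all shares above.

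Another 16 autosomal ING1 peaks of the myotube replicate lists had no myoblast peak and lay outside the pooled myotube list, 11 in replicate 1, 5 in replicate 2 and 0 in replicate 3. Of these, 7 (43.8%) overlapped Sin3A, against 81.1% of the 433 members, which are pooled peaks and not replicate peaks.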

How the results depend on the processing

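The number of myotube-only sites moved with the rule. It was 125 among the wider 50% of supported peaks, 99 with support by at least 2 replicate lists, 3205 with no support needed and 912 without the pooled myoblast list, against 433. Leaving out 1 replicate gave 237 to 576, with 237 without replicate 2 of myotubes. The lower share of each other protein at myotube-only than at shared sites kept its sign in every alternative run (sites over 5 kb from a myoblast peak, added after seeing the data, included), apart from MLL3, which turned to 1.27 percentage points within classes of width and lay between -7.07 and -0.275 elsewhere. The size moved more. Sin3A lay between -29.5 points with no replicate support and -6.37 with Sin3A peaks found in both Sin3A replicates, against -13.9 over all sites (-6.54 with Sin3A replicate 2 alone). MLL1 fell to -3.13 with MLL1 replicate 2 alone and -2.27 with peaks found in both, against -19.0. Menin was -7.28 among the wider 50% of peaks, -22.2 and -24.7 with either replicate alone and -27.8 with peaks found in both, against -13.3, and Wdr5 -6.43 without the pooled myoblast list, -18.0 and -20.7 with replicates 2 and 3 alone and -22.5 with no replicate support, against -9.80. For MLL3, leaving out ING1 replicate 1 of myotubes gave -5.84 and replicate 2 of myoblasts -1.31, against -2.97.

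Against myoblast-only sites, an alternative set added after seeing the data, Sin3A kept 15.2 to 20.8 points, MLL1 -51.3 to -28.9 and Wdr5 5.02 to 13.0 (5.02 without replicate 3 of myotubes) when single replicates were left out or paired. LSD1 of myotubes ranged over -15.3 to 4.93 (4.93 without replicate 1 of myoblasts), LSD1 of myoblasts over -5.55 to 3.36 (2.1704 without replicate 2 of myoblasts), Menin over -16.7 to 0.144 (0.144 without that same replicate) and MLL3 over -5.20 to -0.497. With replicates 1 and 2 as a replicate block, LSD1 of myoblasts was 3.36, Menin -0.669 and Wdr5 5.02. Nothing in the labels says that equal replicate numbers pair samples. Over all sites, not averaged over lists, MLL1 was -22.0, Wdr5 3.75, LSD1 of myotubes 6.23 and MLL3 0.924. The mean difference from shared sites over ING1 lists was -9.92 to 0.739 for Wdr5 and -12.6 to -3.65 for MLL3 when 1 ING1 list was left out, and the other lists kept their sign. The cause of these changes was not tested. Depth is unknown, so lists of unequal length cannot be brought to equal depth.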
